A study of Mus musculus with 20 samples.

Results

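Small leucine-rich proteoglycans are secreted proteins of cartilage, tendon, bone and cornea, built around a horseshoe of leucine-rich repeats. The 10 members described here are Bgn, Dcn, Aspn, Fmod, Lum, Prelp, Omd, Kera, Ogn and Epyc, selected by gene symbol from the family's canonical classes, by a rule that uses no measured value, though the family was picked with earlier results of these data known. They were 10 of the 27911 genes in the table of ATDC5 cells. Of the 15467 genes with enough counts to be tested, 8 were members, and Kera and Epyc fell below the filter on low counts.

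RNA-seq of polyadenylated RNA was made from ATDC5, a mouse chondrogenic cell line that forms cartilage-like cells in insulin-containing medium. There were 3 Kmt2d+/+ clones, and the 2 Kmt2d-/- clones had lost the catalytic SET domain of Kmt2d, a histone H3 lysine methyltransferase, on both alleles. Every clone was harvested undifferentiated at day 0 and after 7 days in chondrogenic medium with insulin, transferrin, selenium, ascorbic acid and beta-glycerophosphate at day 7. Each clone is 1 stable cell line and the replicate, and the genotype groups differ in clone as well as in Kmt2d. P-values of the main fit, which has no clone term, measure the spread between clones and treat a clone's 2 libraries as independent. Where the clone is a replicate block, they measure the spread of the day change between clones. Libraries held 35792709 to 66237183 counts.

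Family members bind collagen fibrils and help to set fibril diameter and spacing, and several also bind growth factors of the TGF-beta family. Class I members such as decorin and biglycan carry chondroitin or dermatan sulfate chains, except for asporin. Class II members such as fibromodulin and lumican carry keratan sulfate or tyrosine sulfate, and class III includes osteoglycin and epiphycan. In cartilage, biglycan, decorin, fibromodulin and PRELP are regular parts of the matrix, whereas keratocan is best known from the cornea.

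In the GENCODE annotation of GRCm38 the members sit in 3 clusters and 1 separate locus. Prelp (chr1:133910304-133921414, minus strand) and Fmod (chr1:134037254-134048277, plus strand) point away from each other across a gap of 115839 bases. Dcn (chr10:97479609-97518143), Lum (chr10:97565128-97572703), Kera (chr10:97606879-97613692) and Epyc (chr10:97644068-97682454) follow each other on the plus strand. Aspn (chr13:49544443-49567565), Omd (chr13:49582462-49592822) and Ogn (chr13:49608046-49624501) do so on chromosome 13, with gaps of 14896 and 15223 bases. Bgn lies alone at chrX:73483602-73495933. Exon structure followed class rather than neighbourhood. Dcn, Bgn and Aspn had 7 coding exons each, Fmod, Lum, Prelp, Kera and Omd had 2, and Ogn and Epyc had 6.

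The upstream sequences of the chromosome 1 pair and of the chromosome 13 trio are shown because the 2 genes of the pair both had higher levels at day 7 in every clone, while the trio, although adjacent, did not move together. RefSeq (GRCm38.p6) gave a promoter entry for 8 of the 10 members, and the 250 bases before the annotated start are printed from 5′ to 3′ on the gene's strand.
Fmod, chr1:134037004-134037253, plus strand: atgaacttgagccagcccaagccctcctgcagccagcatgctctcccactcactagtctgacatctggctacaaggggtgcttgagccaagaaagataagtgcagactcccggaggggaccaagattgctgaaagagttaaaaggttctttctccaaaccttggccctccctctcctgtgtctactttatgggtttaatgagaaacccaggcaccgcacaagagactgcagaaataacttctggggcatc
Prelp, chr1:133921402-133921651, minus strand: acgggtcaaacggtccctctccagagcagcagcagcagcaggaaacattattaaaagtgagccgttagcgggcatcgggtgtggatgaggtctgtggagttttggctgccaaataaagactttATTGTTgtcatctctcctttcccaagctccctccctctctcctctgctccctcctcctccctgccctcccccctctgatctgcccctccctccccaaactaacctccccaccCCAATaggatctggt
Aspn, chr13:49544193-49544442, plus strand: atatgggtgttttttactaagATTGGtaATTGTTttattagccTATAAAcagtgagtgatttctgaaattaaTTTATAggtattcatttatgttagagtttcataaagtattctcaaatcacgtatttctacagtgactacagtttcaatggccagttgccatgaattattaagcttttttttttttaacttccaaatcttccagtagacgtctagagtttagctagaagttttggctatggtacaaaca
Omd, chr13:49582212-49582461, plus strand: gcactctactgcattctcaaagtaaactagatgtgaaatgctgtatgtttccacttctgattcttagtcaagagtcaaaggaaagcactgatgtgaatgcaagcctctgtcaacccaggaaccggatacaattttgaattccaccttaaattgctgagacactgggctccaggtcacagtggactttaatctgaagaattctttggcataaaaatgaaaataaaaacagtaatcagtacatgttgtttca
Ogn, chr13:49607765-49608014, plus strand: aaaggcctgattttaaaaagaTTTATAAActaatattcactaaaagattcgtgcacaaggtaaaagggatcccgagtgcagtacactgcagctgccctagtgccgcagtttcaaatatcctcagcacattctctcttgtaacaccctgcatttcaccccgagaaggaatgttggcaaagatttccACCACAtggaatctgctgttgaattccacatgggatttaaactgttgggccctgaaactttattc
Capitals mark matches on either strand to 8 short motifs: the TATA box (TATAAA), a SOX core (AACAAT), AP-1 (TGANTCA), a RUNX core (TGTGGT), the CCAAT box (CCAAT), the GC box (GGGCGG), an E-box (CACGTG) and a SMAD element (GTCTAGAC). Fmod and Omd held none of them. Prelp held 1 SOX core, 127 to 122 bases before the start, and a CCAAT box 15 to 11 bases before it. Aspn held 2 TATA matches, 1 SOX core and 1 CCAAT box, between 229 and 173 bases before the start. Ogn held overlapping TATA matches on both strands and a RUNX core 65 to 60 bases before the start. Over the 8 members with an entry, the SOX core was found in 4, the CCAAT box in 3, the TATA box in 2, and the RUNX core and the GC box in 1 each. AP-1, the E-box and the SMAD element were found in none of these windows. Of 32851 promoter windows of this length, 12.4% held TATAAA, 9.42% AACAAT, 6.75% TGANTCA, 14% TGTGGT, 33.8% CCAAT, 32.7% GGGCGG, 6.02% CACGTG and 0.167% GTCTAGAC. These matches describe letters only. The levels that follow are in CPM, a gene's counts scaled by the library's TMM-adjusted depth.

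Biglycan transcripts dominated the family in every library. When counts were divided by exon length and scaled to transcript abundance per library (TPM), Bgn made up 50.4% to 72.0% of the summed TPM of the 10 members. Ogn made up 6.12% to 42.3%, Aspn 0.933% to 16.2%, Fmod 0.0879% to 10.5% and Prelp 0.0286% to 9.84%. Averaged over the libraries, the TPM levels ran from Bgn (1597) through Ogn (630.2), Aspn (150.6), Fmod (59.1), Prelp (50.6) and Omd (21.2) to Lum (3.38) and Dcn (1.38). The lowest Bgn library lay above the highest Ogn library, all other neighbours in this order overlapped across libraries, and the order of Lum and Dcn turned when the principal transcript's length was used. Dcn, an abundant transcript of fibroblasts, was thus among the scarcest members here. The summed TPM was 2307 to 2699 in Kmt2d+/+ and 2383 to 3951 in Kmt2d-/- at day 0. At day 7 it was 1698 to 2721 and 2234 to 2485, so these ranges overlapped between genotypes and days.

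**Figure D1:**
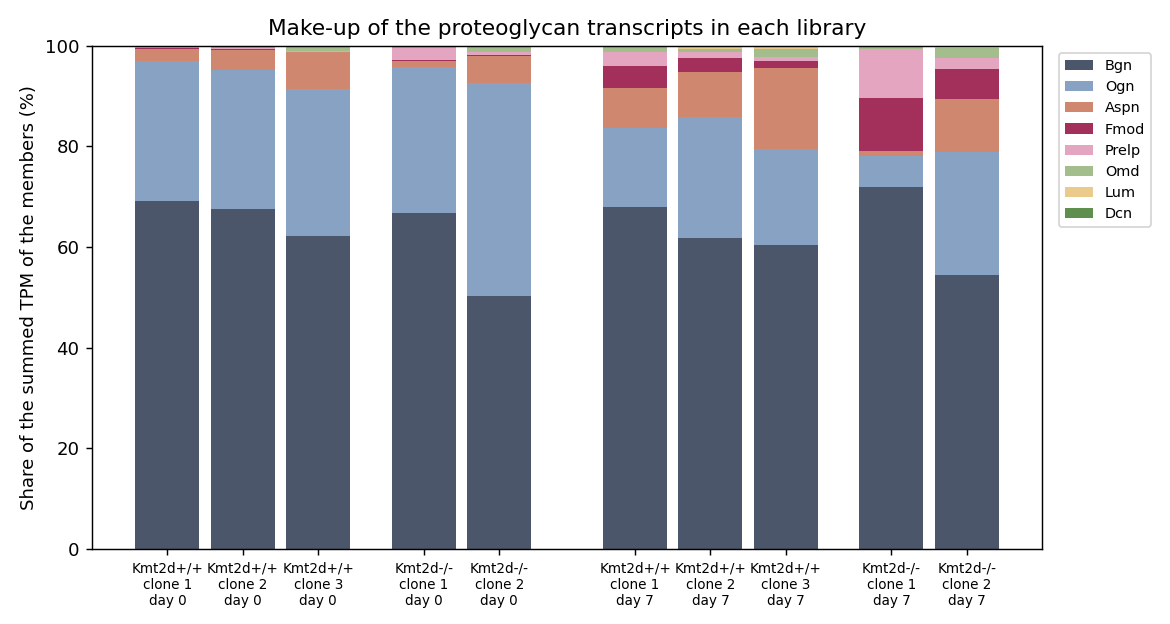
Share of the summed TPM of the 10 members (%, y axis) taken by each member in each of the 10 libraries (x axis), stacked to 100%; Kera and Epyc are too scarce to be seen and are not drawn. Bgn takes 50.4% to 72.0% of every bar, and Fmod and Prelp are broadest in Kmt2d-/- clone 1 at day 7.

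Fmod, which encodes fibromodulin, a class II collagen-binding member, was the member with the clearest course. In Kmt2d+/+ clones 1, 2 and 3 it stood at 2.29, 4.20 and 2.28 CPM on day 0, against 71.6, 68.9 and 25.5 CPM on day 7. In Kmt2d-/- clones 1 and 2 it stood at 7.92 and 1.90 CPM on day 0, against 280.1 and 129.4 CPM on day 7. All 5 day 7 libraries lay above all 5 day 0 libraries, and at day 7 both Kmt2d-/- libraries lay above the 3 Kmt2d+/+ libraries. Within a clone the rise from day 0 to day 7 was 11.2-fold to 31.2-fold in Kmt2d+/+ and 35.4-fold and 68.0-fold in Kmt2d-/-.

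In the edgeR quasi-likelihood test over all genes, Fmod rose 18.9-fold in Kmt2d+/+ (log2 fold change 4.24, SE 0.65, edgeR adjusted p = 0.0193). In Kmt2d-/- it rose 41.7-fold (log2 fold change 5.38, SE 0.84, edgeR adjusted p = 0.0310). With the clone as a replicate block the log2 fold changes were 4.15 and 5.58. The call in Kmt2d+/+ was lost without Kmt2d+/+ clone 1 (log2 fold change 3.86, edgeR adjusted p = 0.142) and without Kmt2d+/+ clone 3 (4.41, adjusted p = 0.199). In Kmt2d-/- it was lost without Kmt2d-/- clone 1 (6.08, edgeR adjusted p = 0.181), Kmt2d-/- clone 2 (5.14, adjusted p = 0.112), Kmt2d+/+ clone 1 (5.38, adjusted p = 0.0614) or Kmt2d+/+ clone 3 (adjusted p = 0.0911). It was also lost when the model was fitted to the Kmt2d-/- libraries alone (5.37, adjusted p = 0.140). In these refits between 0 and 90 of all genes passed.

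Between genotypes, the day 7 level of Fmod was 3.70-fold higher in Kmt2d-/- (log2 fold change 1.89, 95% interval 0.48 to 3.30, edgeR adjusted p = 0.142), which did not pass. DESeq2 called this difference (log2 fold change 1.88, adjusted p = 0.0290), and edgeR gave 1.22 when Kmt2d-/- clone 1 was left out. At day 0 the log2 difference was 0.75 (SE 0.65, edgeR adjusted p = 0.564), and the sign turned without Kmt2d-/- clone 1 (-0.62). The difference between the day effects of the 2 genotypes was 1.14 on the log2 scale (SE 0.91) and was not called (edgeR adjusted p = 1). The larger rise in Kmt2d-/- clones was therefore not shown to differ from that in Kmt2d+/+ clones.

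Prelp, which encodes a class II member that binds heparan sulfate and collagen, varied widely between clones. It stood at 0.773, 8.75 and 1.79 CPM in Kmt2d+/+ clones at day 0 and at 49.7, 31.3 and 14.8 CPM on day 7. In Kmt2d-/- clones it stood at 105.5 and 17.1 CPM on day 0, against 285.9 and 50.4 CPM on day 7. Both Kmt2d-/- libraries exceeded the 3 Kmt2d+/+ libraries at each day, but at day 7 Kmt2d-/- clone 2 lay only just above Kmt2d+/+ clone 1. At day 0 the Kmt2d-/- level was 16.2-fold higher (log2 fold change 4.02, SE 1.16, 95% interval 1.40 to 6.63, edgeR adjusted p = 0.0977). DESeq2 called it (4.01, adjusted p = 0.0164), and edgeR did not. At day 7 the log2 difference was 2.40 (SE 1.09, 95% interval -0.07 to 4.86, edgeR adjusted p = 0.265). When Kmt2d-/- clone 1 was left out, these differences were 2.17 and 0.65.

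Over the days, Prelp was higher at day 7 in each of the 5 clones, by 64.3-fold, 3.58-fold and 8.24-fold in Kmt2d+/+ and by 2.71-fold and 2.95-fold in Kmt2d-/-. Kmt2d+/+ clone 1 had the lowest day 0 level and the greatest ratio. Without a clone term the change in Kmt2d+/+ was not called (log2 fold change 3.07, SE 1.07, edgeR adjusted p = 0.120). With the clone as a replicate block it was (3.38, SE 0.73, edgeR adjusted p = 0.0317). In Kmt2d-/- it passed with neither fit (1.46, edgeR adjusted p = 0.667, and 1.50 with the replicate block, adjusted p = 0.293). The estimate in Kmt2d+/+ was 2.13 without Kmt2d+/+ clone 1 and 4.62 without clone 2.

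Lum, which encodes lumican, a class II member that regulates collagen fibrils in cornea and tendon, was scarce at both days. It had 0, 0.371 and 0.506 CPM in Kmt2d+/+ clones at day 0 and 0.609, 6.52 and 6.44 CPM on day 7. The 2 Kmt2d-/- clones had 0.411 and 0.115 CPM on day 0, against 3.04 and 5.68 CPM on day 7. All day 7 libraries exceeded all day 0 libraries, although Kmt2d+/+ clone 1 stayed well below the rest at day 7. That clone had 0 counts at day 0 and 37 at day 7, which is at least 7.08-fold higher against a floor of 3 counts per library.

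In the fit without a clone term, the Lum estimates were 3.91 in Kmt2d+/+ (SE 1.19, edgeR adjusted p = 0.0865) and 4.05 in Kmt2d-/- (SE 1.47, edgeR adjusted p = 0.238) on the log2 scale. With the clone as a replicate block in edgeR, Lum passed in both genotypes, at 4.08 (SE 0.65, edgeR adjusted p = 0.0172) and 4.07 (SE 0.77, edgeR adjusted p = 0.0411). The random clone block in limma-voom called it in Kmt2d+/+ (adjusted p = 0.0349) and not in Kmt2d-/- (adjusted p = 0.0874). Between genotypes the log2 difference was -0.05 at day 7 and -0.19 at day 0, and its sign turned between alternatives.

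Omd, which encodes osteomodulin, a class II member of mineralised tissues, stood at 6.67, 5.66 and 15.2 CPM in Kmt2d+/+ clones at day 0 and at 13.3, 12.0 and 22.5 CPM on day 7. In Kmt2d-/- clone 1 it went from 13.1 to 5.14 CPM, and in clone 2 from 16.4 to 27.9 CPM. Kmt2d-/- clone 1 was thus the single clone with less Omd at day 7 than at day 0. No comparison of Omd passed, and the log2 differences were 0.80 over the days in Kmt2d+/+ (edgeR adjusted p = 0.449) and 0.16 in Kmt2d-/- (edgeR adjusted p = 0.956).

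Kera, the corneal class II member, had 2 counts in all 10 libraries together, 1 each in Kmt2d+/+ clones 2 and 3 at day 7. In the other 8 libraries it had 0 counts, and 3 counts of a library amount to 0.0453 to 0.0838 CPM.

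**Figure D2:**
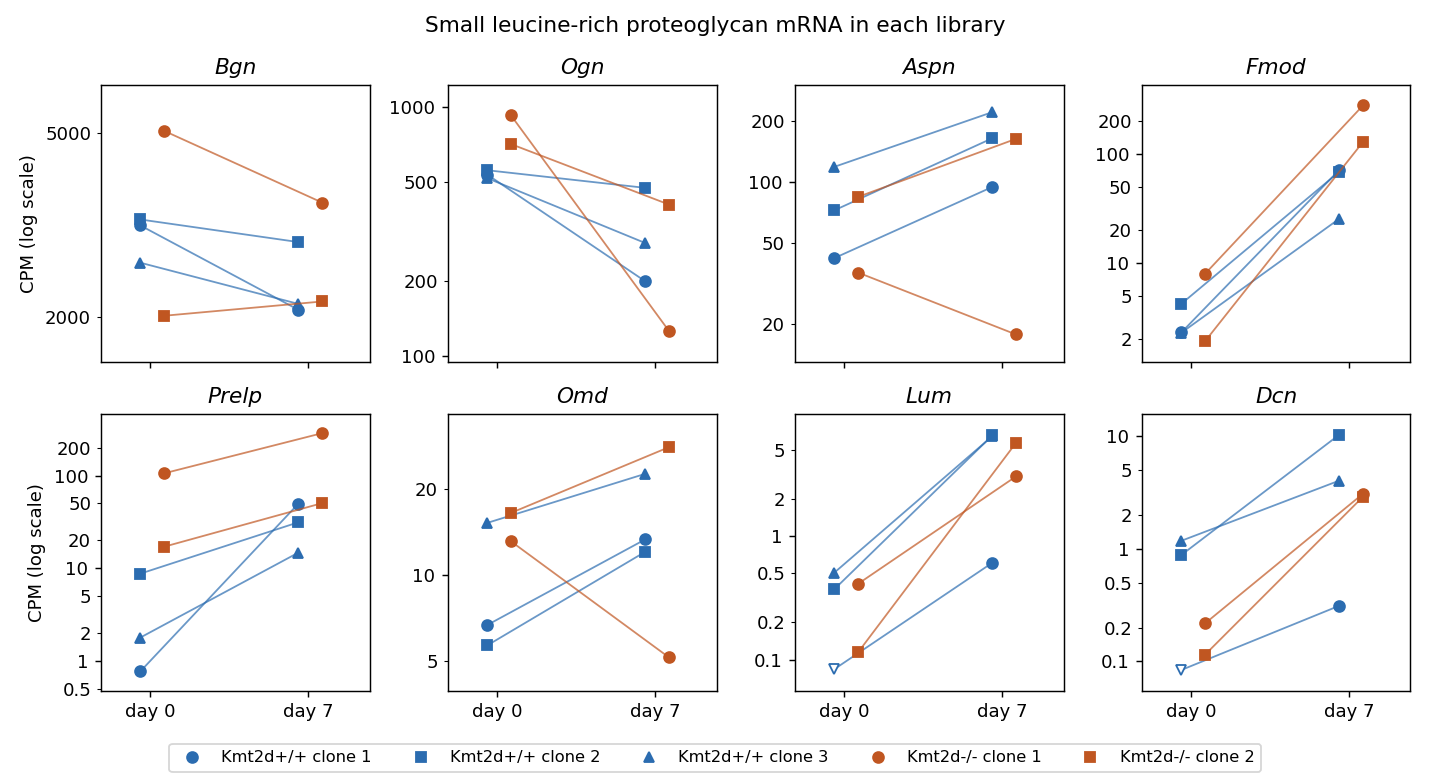
CPM (log y axis, one scale per panel) of the 8 tested members in the 5 clones at day 0 and day 7 (x axis); points are libraries, lines join the libraries of a clone, and open triangles mark 0 counts, drawn at the 0.0838 CPM that 3 counts are worth in the shallowest library. Fmod, Prelp, Lum and Dcn have higher levels at day 7 in all 5 clones, Ogn lower ones in all 5, and Kmt2d-/- clone 1 goes the other way for Aspn and Omd.

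Bgn, which encodes biglycan, the class I member that binds collagen and members of the TGF-beta family, had the highest level of the family in every library. It stood at 3151, 3246 and 2618 CPM in Kmt2d+/+ clones at day 0 and at 2071, 2901 and 2133 CPM on day 7. In Kmt2d-/- clone 1 it was 5044 and 3531 CPM at the 2 days, and in clone 2 it was 2011 and 2159 CPM. Kmt2d-/- clone 1 was the highest library at each day, while clone 2 was the lowest at day 0 and lay among the Kmt2d+/+ clones at day 7. The log2 difference at day 7 was 0.26 with a 95% interval of -0.57 to 1.10 (edgeR adjusted p = 0.756). Over the days it was -0.34 in Kmt2d+/+ (edgeR adjusted p = 0.566) and -0.31 in Kmt2d-/- (edgeR adjusted p = 0.802).

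Dcn, which encodes decorin, the class I member named for decorating collagen fibrils, had 0, 0.882 and 1.18 CPM in Kmt2d+/+ clones at day 0 and 0.313, 10.4 and 4.05 CPM on day 7. In Kmt2d-/- clones it had 0.217 and 0.115 CPM on day 0, against 3.10 and 2.92 CPM on day 7. Each clone had more Dcn at day 7, but in Kmt2d+/+ the groups overlapped because clone 1 at day 7 lay below clones 2 and 3 at day 0. Clone 1 had 0 counts at day 0 and 19 at day 7, at least 3.64-fold more. The log2 change over the days was 2.82 in Kmt2d+/+ (SE 1.31, edgeR adjusted p = 0.225) and 4.16 in Kmt2d-/- (SE 1.77, edgeR adjusted p = 0.319). The edgeR fit with the clone as a replicate block called Dcn in both, at 2.87 (edgeR adjusted p = 0.0275) and 4.19 (edgeR adjusted p = 0.0332). Both calls were lost with the clone as a random block at an estimated correlation in limma-voom (adjusted p = 0.0991 and adjusted p = 0.171). The genotype differences were -2.05 at day 0 (SE 1.60, edgeR adjusted p = 0.513) and -0.71 at day 7 (edgeR adjusted p = 0.835).

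Aspn, which encodes asporin, the class I member without a glycosaminoglycan chain and a binder of TGF-beta, stood at 42.0, 72.3 and 118.5 CPM in Kmt2d+/+ clones at day 0 and at 94.3, 164 and 220.6 CPM on day 7. In Kmt2d-/- clone 1 it went from 35.7 to 17.7 CPM, and in clone 2 from 84.2 to 162.9 CPM. As for Omd, Kmt2d-/- clone 1 was the only clone with a lower level at day 7, and at day 7 it held the lowest Aspn level of the 10 libraries. The ratio of day 7 to day 0 was 1.86 to 2.27 in Kmt2d+/+, 0.495 in Kmt2d-/- clone 1 and 1.93 in clone 2. The log2 difference between genotypes at day 7 was -0.82 (SE 0.83, edgeR adjusted p = 0.645). Leaving out Kmt2d-/- clone 1 gave 0.03, and leaving out Kmt2d-/- clone 2 gave -3.18. The change over the days in Kmt2d+/+ was 1.04 (SE 0.73, edgeR adjusted p = 0.416) and stayed uncalled with the replicate block (1.08, edgeR adjusted p = 0.0724).

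Ogn, which encodes osteoglycin, a class III member, was the second most abundant member on the TPM scale. It stood at 535.5, 557.7 and 518.2 CPM in Kmt2d+/+ clones at day 0 and at 199.8, 473.9 and 284.6 CPM on day 7. In Kmt2d-/- clones it stood at 925 and 709.9 CPM on day 0, against 126.2 and 406.1 CPM on day 7. Every day 7 library lay below every day 0 library, in both genotypes, and at day 0 both Kmt2d-/- libraries lay above the 3 Kmt2d+/+ libraries. Among all genes tested, 14.7% were lower at day 7 without overlap in Kmt2d+/+ and 21.9% in Kmt2d-/-. The estimates did not pass. The log2 change over the days was -0.75 in Kmt2d+/+ (SE 0.42, edgeR adjusted p = 0.309) and -1.62 in Kmt2d-/- (SE 0.53, 3.07-fold lower, edgeR adjusted p = 0.185). The latter was called by DESeq2 (-1.61, adjusted p = 0.0369) and by limma-voom with the clone as a random block (-1.84, adjusted p = 0.0346), and not by edgeR with the clone as a replicate block (-1.84, edgeR adjusted p = 0.103). Leaving out Kmt2d-/- clone 1 gave -0.81, and leaving out clone 2 gave -2.88.

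Epyc, which encodes epiphycan, a class III member of growth plate cartilage, was near the limit of detection. It had 31 counts in all, of which 24 and 5 were in Kmt2d-/- clones 1 and 2 at day 7 and 2 in Kmt2d+/+ clone 3 at day 7. All 5 day 0 libraries had 0 counts. The summed day 7 level was 27.5-fold higher in Kmt2d-/- than in Kmt2d+/+, with an exact 95% interval of 6.96 to 237.8 that covers counting error only. No test of the genotypes was made at these counts. Within Kmt2d-/- clones, the day 7 level was at least 6.37-fold and 1.33-fold higher than at day 0 against a floor of 3 counts per library.

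Across the 8 tested members, Fmod was the 1 member that passed in Kmt2d+/+ over the days (edgeR adjusted p under 0.05), where 5.08% of all genes passed. It was also the 1 member that passed in Kmt2d-/-, where 1.27% did. With the clone as a replicate block, 4 members passed in Kmt2d+/+ (Fmod, Lum, Dcn and Prelp), beside 18% of all genes. In Kmt2d-/-, 3 passed (Fmod, Lum and Dcn), beside 5.57% of all genes. All of these estimates were positive. In limma-voom with the clone as a random block, the members that passed were Fmod, Lum and Prelp in Kmt2d+/+, and Fmod (higher) and Ogn (lower) in Kmt2d-/-. In Kmt2d+/+ this fit called 3457 of the 15467 genes tested. The median log2 change of the 8 members was 1.93 in Kmt2d+/+ and 1.02 in Kmt2d-/-, against 0.03 and 0 for all genes tested.

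By direction alone, 4 of 8 members were higher at day 7 in each of the 5 clones (Fmod, Lum, Dcn and Prelp), as were 20.2% of all genes tested. Ogn was lower in each of the 5, as were 18.8% of all genes. In Kmt2d+/+, the days did not overlap for Fmod, Lum and Prelp (higher) and Ogn (lower). Among all genes tested, 16.2% were higher and 14.7% lower without overlap there. In Kmt2d-/- this held for Fmod, Lum and Dcn (higher) and Ogn (lower), beside 22.9% and 21.9% of all genes. Bgn, Aspn and Omd were of mixed direction, with 1 Kmt2d-/- clone against the other 4 clones in each case. That clone was clone 2 for Bgn and clone 1 for Aspn and Omd.

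Between genotypes, 0 of 8 members passed in edgeR at day 7, where 1.87% of all genes passed, and 0 of 8 at day 0, where 2.15% did. At an unadjusted p under 0.05 there was 1 member at each day, Fmod at day 7 and Prelp at day 0, and DESeq2 called the same 1 member at each. Of all genes, 19.9% and 20.2% reached an unadjusted p under 0.05. The groups did not overlap for Fmod and Prelp at day 7 and for Ogn and Prelp at day 0, each higher in Kmt2d-/-. Among all genes tested, 17.9% and 18.6% were higher without overlap at the 2 days. The members' median log2 difference was 0 at day 7 and 0.42 at day 0, against -0.02 and 0.01 for all genes. For the difference of the day effects, 0 of 8 members and 0% of all genes passed in edgeR, 0 members had an unadjusted p under 0.05, and DESeq2 called 0 members. The genotype and day comparisons share libraries, and their values are therefore not independent of each other.

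**Figure D3:**
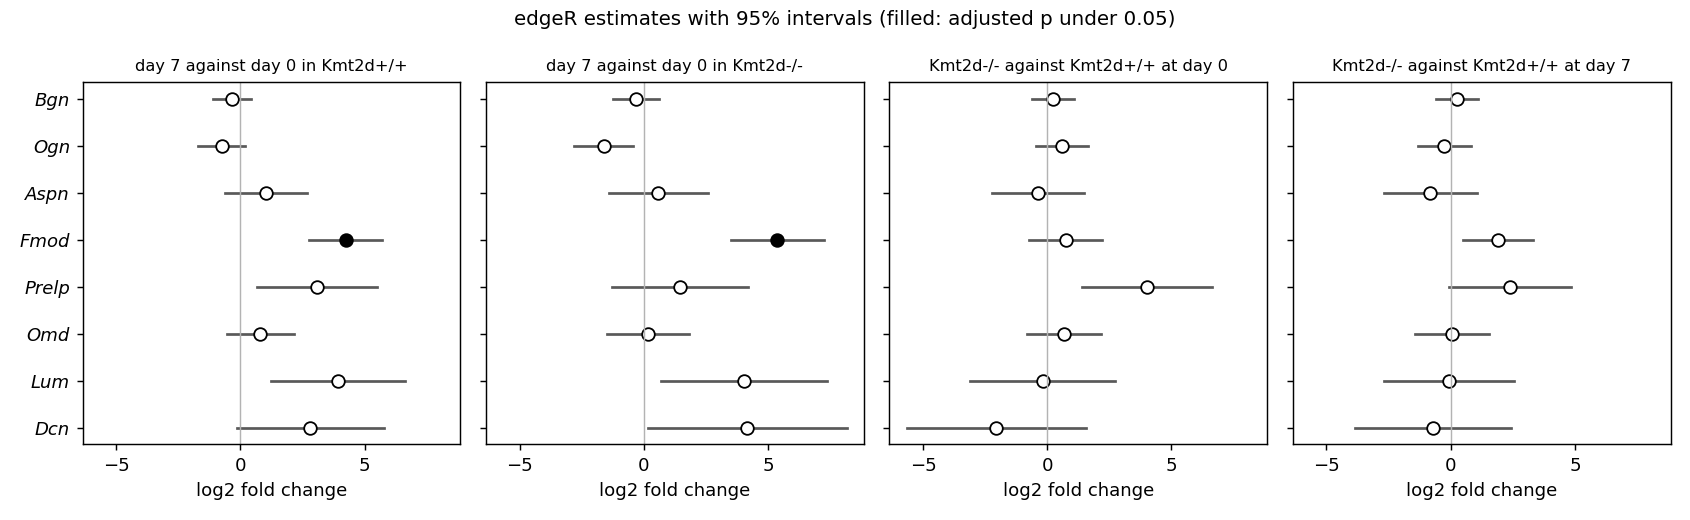
edgeR log2 fold changes (x axis) with 95% intervals for the 8 tested members (y axis) in 4 comparisons; filled points have an adjusted p under 0.05 over all genes. Fmod over the days is filled in both genotypes, and all other points are open.

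Markers of other cell states moved with the same comparisons. The summed CPM of 15 chondrocyte markers was 51.3 to 142.6 in Kmt2d+/+ and 1051 to 2869 in Kmt2d-/- at day 0, and 326.9 to 1098 and 23680 to 27860 at day 7. The 15 markers' estimates were all positive in each of these 4 comparisons, and 5, 3, 3 and 1 passed in edgeR (days in Kmt2d+/+, days in Kmt2d-/-, genotype at day 7 and at day 0). These were 33.3%, 20%, 20% and 6.67% of the list, against 5.08%, 1.27%, 1.87% and 2.15% of all genes tested. The sum of 8 osteoblast markers was 408.1 to 839 and 684.4 to 772 CPM on day 0, against 2073 to 2410 and 1543 to 2038 CPM on day 7. Over the days all 8 osteoblast estimates were positive in both genotypes. In edgeR 5 of them passed in Kmt2d+/+ (62.5%) and 1 in Kmt2d-/- (12.5%), and 0 passed between genotypes at either day. Col2a1 made up most of the chondrocyte sum in Kmt2d-/-, and the other 14 markers summed to 42.6 to 108.2 and 244.8 to 335.9 CPM at day 0, and to 201.4 to 765.5 and 3214 to 3407 CPM at day 7. The sum of 6 myofibroblast and smooth muscle markers was lower at day 7, at 2769 to 3513 CPM in Kmt2d+/+ and 776.2 to 1027 CPM in Kmt2d-/-, than at day 0, at 6712 to 9521 and 1946 to 7204 CPM. Of its 5 tested genes, 0 passed in edgeR. Of 12 tendon and fibroblast markers, 9 were tested, and the list's sum was 26640 to 68930 CPM, mostly Col1a1 and Col1a2. Scx, a tendon transcription factor, was lower in Kmt2d-/- at day 7 (log2 -1.58, edgeR adjusted p = 0.0346). It was the 1 passing gene of the 9 there (11.1%, against 1.87% of all genes), where 5 estimates were positive and 4 negative. Over the days in Kmt2d+/+, Pdgfra rose (2.59, edgeR adjusted p = 0.0394) and Fn1, fibronectin, fell (-1.45, edgeR adjusted p = 0.0466). These were 22.2% of the tested genes of the list, against 5.08% of all genes, and 8 of the 9 estimates were positive. Tnmd, Thbs4 and Thy1 of this list were under 1 CPM in every library, as were the 5 immune markers. The 5 keratocyte markers summed to 6.33 to 142.1 CPM, most of it Cd34 in Kmt2d+/+ (means of 47.1 and 64.6 CPM at the 2 days). Angptl7 and Ptgds were under 1 CPM in every library, and 0 of the 4 tested keratocyte markers passed in edgeR. The part of such shifts in the Fmod and Prelp values was not tested. In these bulk libraries, fewer cells of a type and less RNA per cell cannot be told apart. Kmt2d mRNA itself stood at 173.3 to 210.8 CPM in Kmt2d+/+ and 113.3 to 205.2 CPM in Kmt2d-/- libraries. A count over the whole gene does not check a deletion of its SET domain.

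The enzymes that build the members' sugar chains were read from 2 lists. Of 8 tested genes of keratan sulfate synthesis, 0 passed in edgeR in any of the 5 comparisons, with median log2 changes of 0.41 at day 7 and 0.41 at day 0 between genotypes. Of 22 tested genes of chondroitin and dermatan sulfate chain synthesis, 3 rose over the days in Kmt2d+/+ (13.6%, against 5.08% of all genes) and 2 in Kmt2d-/- (9.09%, against 1.27%), and 0 fell. Csgalnact1, which starts chondroitin chain polymerisation, rose from 9.73 ± 0.243 to 28.3 ± 11.7 CPM in Kmt2d+/+ (SD over 3 clones, edgeR adjusted p = 0.0392). In Kmt2d-/- it rose from 11.3 ± 4.87 to 81.9 ± 23.3 CPM (SD over 2 clones, edgeR adjusted p = 0.0294). Chst13, the remaining passing gene over the days in both genotypes, was under 5 CPM in every group and is named for its call. Its mean was 0.0243 CPM in Kmt2d+/+ and 0.0115 CPM in Kmt2d-/- at day 0, under the floor of 3 counts. At day 7 the means were 2.50 and 0.925 CPM, so it passed the filter on low counts through day 7. Both shares above include it. Chst11, a chondroitin 4-O-sulfotransferase, rose 3.57-fold in Kmt2d+/+ (edgeR adjusted p = 0.0452). Between genotypes, Ust, a uronyl 2-sulfotransferase, was 2.08-fold lower in Kmt2d-/- at day 0 (edgeR adjusted p = 0.0433), and 0 of the 22 passed at day 7.

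Of 14 fibrillar and other collagens that members bind or regulate, 1 passed (7.14%) in each genotype comparison and over the days in Kmt2d+/+. Among all genes, 1.87% passed at day 7, 2.15% at day 0 and 5.08% over the days in Kmt2d+/+. The passing gene was Col2a1, the cartilage collagen, with log2 differences of 6.57 at day 7, 6.77 at day 0 and 3.95 over the days. Of 19 tested growth factors and receptors that members bind, Ccn2, a matricellular growth factor, fell 26.8-fold in Kmt2d+/+ (edgeR adjusted p = 0.00741) and 24.9-fold in Kmt2d-/- (edgeR adjusted p = 0.0207). Igf1r, the receptor of insulin-like growth factor, fell 2.52-fold in Kmt2d-/- (edgeR adjusted p = 0.0318). Tgfb1 was 4.97-fold higher in Kmt2d-/- at day 0 (edgeR adjusted p = 0.0433), the other passing result in this list. The calls were 5.26% of the list over the days in Kmt2d+/+, 10.5% in Kmt2d-/- and 5.26% between genotypes at day 0. Among all genes, 5.08%, 1.27% and 2.15% passed there. Of 14 tested proteases and inhibitors, Timp3 fell 4.28-fold over the days in Kmt2d+/+ (edgeR adjusted p = 0.0202) and no other gene passed. That was 7.14% of the list, near the 5.08% of all genes. All lists are given without a test of the list as a whole.

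The members were also set beside their genomic neighbours. Within 1 Mb of Prelp and Fmod, 24 other genes were tested. Their median log2 change over the days in Kmt2d+/+ was -0.01, and 2 passed, both lower (Lgr6 and Ppp1r12b). At day 7 the neighbours' median genotype difference was -0.08, with 0 passing in edgeR, against 2.40 for Prelp and 1.89 for Fmod. The nearest tested genes were Optc, another class III member, at -1.79 (edgeR adjusted p = 0.0827) and Btg2 at -1.20 (edgeR adjusted p = 0.0792). In the day 7 genotype comparison the estimates of Prelp and Fmod lay above those of all 24 neighbours, of which the highest was 0.76. This did not hold in the other comparisons. Over the days in Kmt2d+/+ 1 neighbour was at 3.64, above the 3.07 of Prelp. At day 0 the neighbours reached 2.23, above the 0.75 of Fmod.

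**Figure D4:**
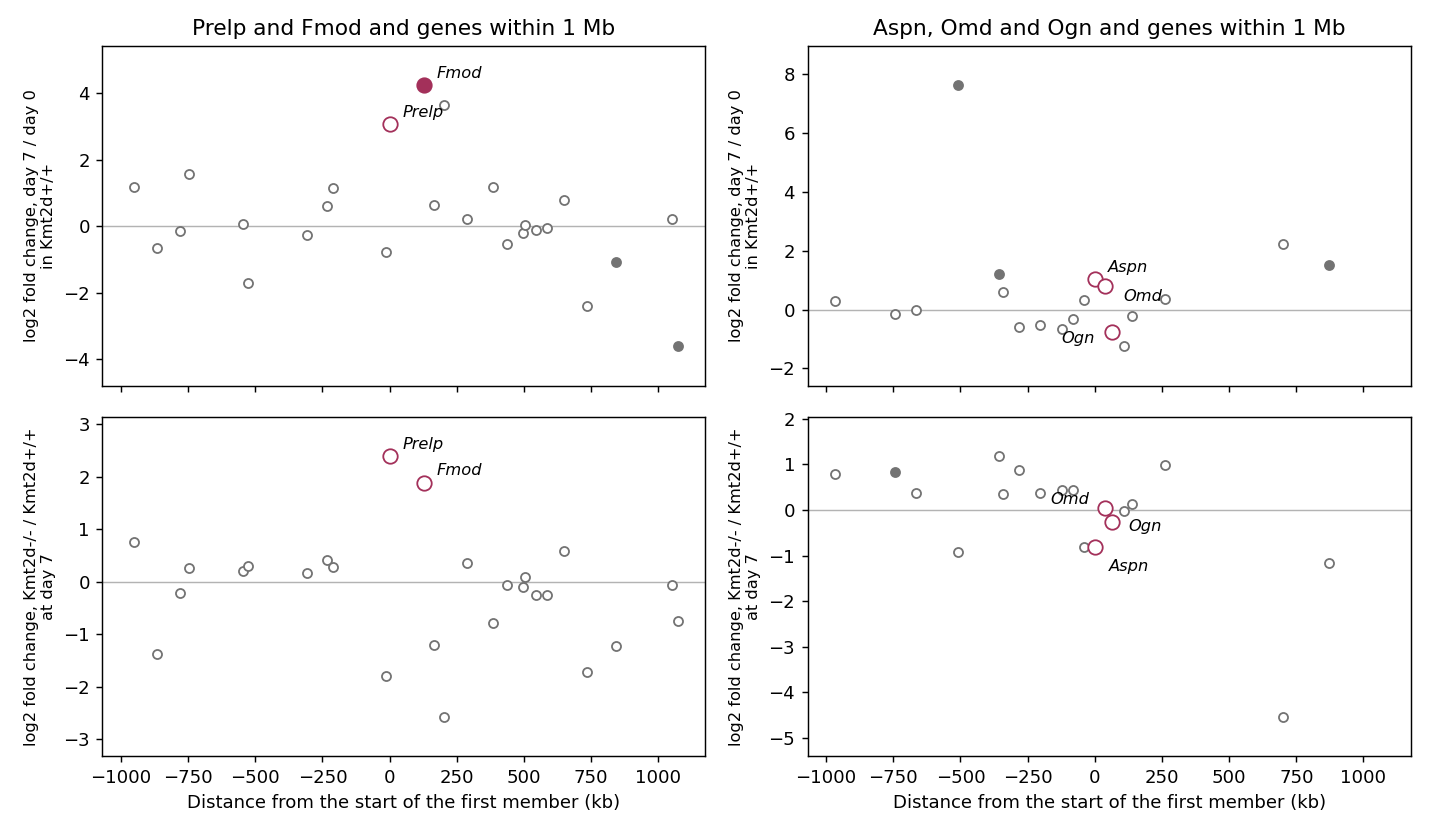
log2 fold changes (y axes; top, day 7 over day 0 in Kmt2d+/+; bottom, Kmt2d-/- over Kmt2d+/+ at day 7) of members (red, named) and other tested genes (grey) by the distance of their start from that of the first member (x axes, kb); filled points have an edgeR adjusted p under 0.05. Prelp and Fmod stand above their neighbours between genotypes (2.40 and 1.89 against at most 0.76), and Aspn, Omd and Ogn lie among theirs.

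Around Aspn, Omd and Ogn, 16 other genes were tested, and their median genotype difference was 0.37 at day 7 and 0.52 at day 0. Of these neighbours, 1 passed in edgeR at each day, Phf2, higher in Kmt2d-/-. Over the days, 3 passed in Kmt2d+/+ (Fbxw17, Ninj1 and Wnk2) and 1 in Kmt2d-/- (Wnk2), all higher. Over the 129 non-member genes within 10 Mb, the median log2 deviation from the Kmt2d+/+ mean was 0.11 and 0.40 in Kmt2d-/- clones 1 and 2 at day 0, and 0.04 and 0.36 at day 7. It was -0.02 to 0.02 in the Kmt2d+/+ libraries. With that regional level subtracted, the genotype difference at day 0 was 0.37 for Ogn in place of 0.61 and 0.43 for Omd in place of 0.68. For Aspn it was -0.68 in place of -0.37. At day 7 it was -0.25 for Omd in place of 0.05, -0.54 for Ogn in place of -0.26, and -1.15 for Aspn in place of -0.82. None of these passed in either fit. The nearest tested genes outside the trio were Ecm2, a leucine-rich extracellular matrix gene, and Nol8, with day 7 differences of -0.81 and -0.02. Cenpp spans all 3 members on the opposite strand, and whether counting used strand is not given in the sources used here, so reads from exon sequence that both share cannot be told apart. Its annotated exons share 7 bases with those of Aspn and 0 with those of Omd and Ogn. The antisense gene Gm15851 shares 350 of the 3615 exon bases of Prelp (9.68%). Btg1 and Atp2b1 flanked the chromosome 10 cluster and Haus7 and Dusp9 flanked Bgn, with 0 of the 4 passing in edgeR in any of the genotype or day comparisons.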

How the data were processed

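Per the labels' protocols, poly(A) RNA was made into libraries with the NEBNext Ultra II kit. The authors deposited gene-level estimated counts, not normalized, for 27911 genes. Each clone and day had 2 columns, labelled technical replicates 1 and 2 and called runs here. In Kmt2d+/+ clone 1 at day 7 these held 48351 and 77550 counts of Bgn, and 6066 and 6082 of Ogn. The ratio of the runs thus differed between genes, and the cause was not tested. The submitters' processing notes name the GRCm38 build and the tools Salmon, DESeq2, limma and edgeR. Tool versions, annotation and strand use are not stated in the labels.

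The 2 runs were summed and rounded, giving 10 libraries of 35792709 to 66237183 counts. Sample titles give 1 Kmt2d+/+ clone (clone 2) and 1 Kmt2d-/- clone (clone 1) the same clone name, and genotype and clone number were taken as labelled. One edgeR model (edgeR 4.0.16, R 4.3.3) with a mean for each of 4 groups was fitted to the 15467 genes kept by filterByExpr, with TMM scaling, the quasi-likelihood F test (6 residual degrees of freedom) and Benjamini-Hochberg adjustment over all genes. Adjusted p-values called edgeR's come from it. CPM uses TMM-adjusted library sizes, and TPM the union exon length in GENCODE vM21. The exact interval of Epyc and floors of 3 counts cover counting error only. Intervals of the edgeR fold changes come from the standard errors of the fit and include the spread between clones. The same clones were harvested at both days, so day changes were refitted with the clone as a replicate block. Deviations of a clone's 2 libraries from their group means correlated with r = 0.39 to 0.60 in Kmt2d+/+ clones over 15467 genes. In Kmt2d-/- it was 0.51, a single value because 2 clones mirror each other. Alternatives were DESeq2 1.42.0, limma 3.58.1, other filters and scalings, single runs, a regional offset and leaving out each clone. All members were named, with up to 3 passing genes of the largest change per related list at 5 CPM or more, and the nearest tested neighbours. The members and lists were chosen with earlier results of these data known.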

Additional observations from a re-analysis of the deposited data

How the results depend on the processing

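Of 656 values of the 40 member results under alternatives, 589 kept direction and side of the threshold, 15 passed newly, 7 no longer passed and 45 changed sign. All 32 group levels moved by less than their spread with DESeq2 size factors. Members passing with DESeq2 were 1 at day 7 and 1 at day 0 between genotypes, and 3 in Kmt2d+/+ and 4 in Kmt2d-/- over the days. DESeq2, run on 22202 genes without the filter on low counts, called 1577, 1607, 2254 and 1009 in these comparisons. On its 15467 genes, edgeR called 290, 332, 786 and 196. With the clone as a replicate block, 4 and 3 members passed in edgeR, and 3 and 2 with the clone as a random replicate block in limma-voom (consensus correlation 0.49), partly other members. Of all genes, 2789 and 862 passed with the edgeR block, and 3457 passed in Kmt2d+/+ with the random block. With the Kmt2d-/- libraries fitted alone, 0 passed. Leaving out single clones gave 0 to 1 in both genotypes, with 0 without Kmt2d+/+ clone 1 or 3 in each. Leaving out a clone of 2 leaves 1 library a group, which is then assumed to vary like the others.

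Signs turned only for differences that were never called. At day 7 between genotypes, Lum was 0.45 with limma-voom, 0.44 with the random block, 0.13 with run 1 alone and -0.57 to 0.33 with a clone left out. Dcn was 0.28, 0.27 and -1.26 to 0.46 (limma-voom, random block, clone left out), and Omd was -0.35, -0.35 and -1.64 to 0.80, or -0.25 with the regional offset. With a clone left out, Bgn was -0.14 to 0.58, Ogn -1.34 to 0.34 and Aspn -3.18 to 0.03. At day 0, Lum was 0.57 with limma-voom, 0.58 with the random block and -1.36 to 0.46 with a clone left out, Fmod -0.62 to 1.44, Bgn -0.58 to 0.75 and Aspn -1.12 to 0.12. Over the days in Kmt2d-/-, Aspn was -0.03, -0.02 and -0.03 with limma-voom, the edgeR block and the random block, and -1.02 to 0.94 with a clone left out. Omd was -0.28 in these 3 fits and -1.35 to 0.76, and Bgn -0.52 to 0.09. For the difference of the day effects, Lum was -0.12 with limma-voom, -0.33 with run 2 alone, -0.01 with the edgeR block, -0.14 with the random block, -0.01 with the regional offset and -1.04 to 1.68 with a clone left out, and Bgn -0.18 to 0.44. The cause of these turns was not tested. Genotype values rest on 2 Kmt2d-/- clones, and Lum, Dcn, Kera and Epyc rest on few counts. Signs turned with a clone of either genotype left out. At day 7, Bgn was -0.14 without Kmt2d-/- clone 1, and Dcn was 0.46 without Kmt2d+/+ clone 2. Without Kmt2d-/- clone 1 or 2, Dcn was -0.76 or -0.67.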

Other observations

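Related leucine-rich repeat genes outside the canonical set were measured too, and 0 of the 8 tested passed in edgeR in any comparison. Podnl1, a podocan-like class V gene, was the most abundant of them, at 52.1 ± 4.85 CPM in Kmt2d+/+ and 20.3 ± 5.17 CPM in Kmt2d-/- at day 0. Its groups did not overlap there (46.5 to 55.1 against 16.6 to 23.9 CPM), and the difference missed the threshold (log2 -1.36, edgeR adjusted p = 0.0640). Tsku, which encodes tsukushi, a BMP-binding protein, was also lower in each Kmt2d-/- library at day 0, at 2.20 to 2.50 CPM against 5.18 to 5.64 CPM (log2 -1.22, edgeR adjusted p = 0.0516). Optc, beside Prelp, stood at 0.806 to 1.53 CPM in Kmt2d+/+ and 0.293 to 0.366 CPM in Kmt2d-/- at day 7. Nyx stood at 2.70 to 3.39 and 0.712 to 0.954 CPM at day 7, and both genes missed the threshold. Among all genes tested, 18.3% were lower in Kmt2d-/- without overlap at day 0 and 19.8% at day 7, so such separation was common. Podn, Ecm2 and Chadl were under 11 CPM and Chad under 1 CPM in every library, all without a call.

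Among 10536 genes of at least 5 CPM, the genes whose log2 CPM followed the 3 most abundant members most closely over the 10 libraries were Timp1 for Bgn (Pearson r = 0.973), Ttll7 for Ogn (0.931) and Dcun1d3 for Aspn (0.880). The next were Ltbr (0.950) and Smo (0.931) for Bgn, Gadd45g (0.914) and Gnao1 (0.897) for Ogn, and Clip3 (0.878) and Sgsm1 (0.874) for Aspn. The 10 libraries come from 5 clones and are not independent, and these are the highest of many values.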
